A study of Mus musculus with 12 samples.

Results

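The small intestine of mice fasted for 12 h was compared with that of fed mice on 6 two-colour Agilent oligonucleotide arrays, 3 for each state. All arrays of the series labelled 12 h fasted or 0 h were taken, which makes 6 of its 12 arrays, with 20280 probes that are neither controls nor retired spots. The mice were male FVB of 6 weeks, kept in metabolic cages and killed within the same hour of the morning, so that fed and fasted animals were sampled at the same clock time. The fasted animals had been without chow for 12 h with free access to water. Each array carried, labelled with Cy3, the RNA of a pool of 2 mice, and, labelled with Cy5, a reference pooled from 6 fed mice. Thus n = 3 pools per state, and a pool hides the difference between the mice in it. The dyes were not swapped. For fed replicate 3 the source of the reference is given as the mice of its own pool, and the labelling protocols of fed replicate 2 and of 12 h replicates 1 and 2 name other mice than their titles do. The titles were followed. RNA came from the whole gut wall, in which enterocytes, crypt cells, immune cells, smooth muscle and stroma are mixed, and fewer cells of a type cannot be told apart from less RNA per cell.

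Enterocytes of the fed gut burn glutamine, glutamate and aspartate from the meal and hand fatty acids on as triglyceride in chylomicrons. When food is withdrawn, fatty acids released from adipose tissue reach the gut through the blood and activate the nuclear receptor PPARα, which switches on genes of mitochondrial and peroxisomal β-oxidation and of ketone body synthesis, and Pdk4, which closes the entry of pyruvate into the citric-acid cycle. A shortage of amino acids is sensed separately, through the kinase Gcn2 and the transcription factor ATF4, which induces Asns and other genes of amino-acid supply. Feeding time also sets the phase of the intestinal clock, and cholesterol synthesis and lipogenesis are governed by the SREBP factors and their retention protein Insig1.

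A change is given as the difference in log2(Cy3/Cy5), the log ratio, between the fasted and fed pools, ± the standard error (SE) of a limma fit over all 12 arrays, and adjusted p-values are Benjamini-Hochberg values over all probes. Calls were made where the adjusted p was under 0.05. Because the log ratio moves when the reference channel does, the changes of Cy3 and of Cy5 alone are given beside it. Signals are background-corrected, normalised intensities in arbitrary units, listed in the order of replicates 1, 2 and 3. Of the 20278 probes with a value in both states, 2213 (10.9%) were called in the log ratio, 993 of them higher (4.90%) and 1220 lower (6.02%) at 12 h. In Cy3 alone 3038 probes (15.0%) were called and in Cy5, which held the same kind of fed RNA on every array, 4448 (21.9%). Calls in the log ratio and in Cy3 with one direction were made for 548 probes (2.70%), 293 higher (1.44%) and 255 lower (1.26%). For 26.4% of probes the log ratios of the 2 states did not overlap. Among the 8074 genes with a symbol, each by its brightest probe, 16.4% were called in the log ratio and 3.69% in the log ratio and Cy3 (1.93% higher and 1.76% lower). In Cy3, 468 of these genes were called higher and 771 lower.

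The reference channel moved together with many calls. Over the 20278 probes, the Cy3 and Cy5 differences between the states correlated with r = 0.57, a description across probes that share their arrays, and had SDs of 0.51 and 0.50 log2 units. For 1616 (73.0%) of the probes called in the log ratio the Cy3 and Cy5 differences had opposite signs, and for 54.2% the Cy5 difference was the larger in size. Among the 548 probes called in both measures, the Cy3 difference was the larger for 531 and Cy5 was not called for 470. The choice itself favours both results, since the log ratio is Cy3 less Cy5 and had to share its direction with Cy3. Both replicates numbered 3 gave extreme values. Of the 993 probes called higher, 821 (82.7%) had their lowest Cy5 signal on 12 h replicate 3, and for 679 (68.4%) the lowest log ratio was that of fed replicate 3. Without fed replicate 3 only 636 probes were called in the log ratio, without fed replicate 1 there were 817 and without fed replicate 2 there were 1506, whereas 4584 were called without 12 h replicate 1, on which 1099 spots (5.42%) carried the scanner software's outlier flag. Those spots were left out of the values. With the 24 h and 72 h arrays left out of the fit, no probe was called in the log ratio by limma (4237 had an unadjusted p under 0.05 and the lowest adjusted p was 0.0528), and 1286 were called in Cy3. The spread of the 24 h and 72 h arrays therefore enters every call below.

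**Figure D1:**
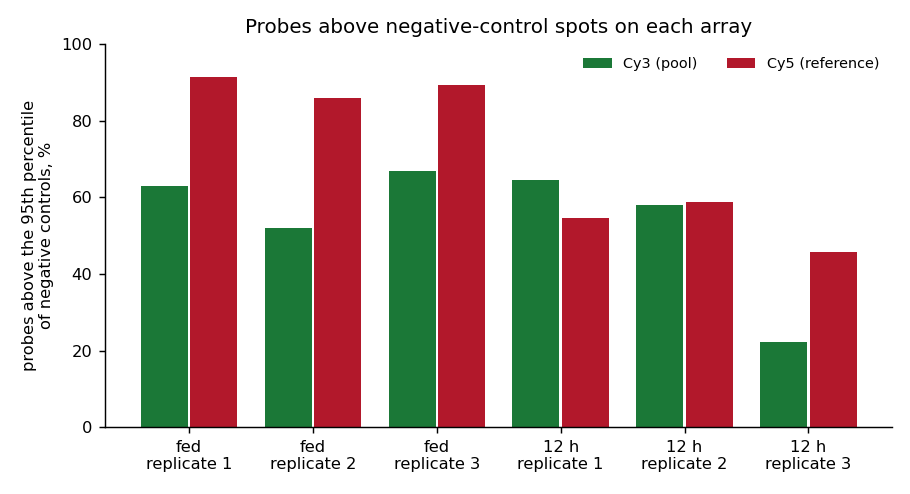
Share of probes (y axis, %) whose median intensity exceeded the 95th percentile of the negative-control spots on each of the 6 arrays (x axis), in Cy3 (green, pools) and Cy5 (red, reference). In Cy3 the share was 22.2% on 12 h replicate 3 against 52.0% to 66.9% on the other 5 arrays, and in Cy5 it was 86.0% or more on the fed arrays and 58.8% or less on the 12 h arrays.

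Signal over background also differed between the states. The median probe was 1.86 to 2.72 times as bright in Cy3 as the median negative-control spot on the fed arrays and 1.10 to 1.20 times on the 12 h arrays, and the 2 states were scanned into files of different format. Only 4320 probes (21.3%) exceeded the 95th percentile of the negative controls in Cy3 on all 6 arrays, among them 196 of the 548 called in both measures. Second probes of Gclm and Tomm20, with fasted Cy3 signals of 81.1, 102 and 109 and of 87.8, 81.5 and 70.0, exceeded it on no fasted array. Fasted signals given below for Tcrb-J, Cdc45, Rfc4 and Ciart are about as low. So are those for Akr1c14 and Thra on 12 h replicate 1 and for Elovl6 on 12 h replicate 3. On 12 h replicate 3, second probes of Eif2b1 and Uqcrc1, with Cy3 signals of 214 and 229, did not exceed that percentile either. The signals given below for Akr1c14, Mccc1 and Rpa3 on that array lie below 229. The sizes of these falls are therefore uncertain. The parts of the file format and of the background in the calls cannot be told apart from fasting.

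Pdk4, the kinase that inactivates pyruvate dehydrogenase, and Acot1, a thioesterase that releases fatty acids from acyl-CoA, were higher in every fasted pool than in any fed pool. Pdk4 had Cy3 signals of 159.7, 149.9 and 183 fed and 483, 438 and 426 fasted, with Cy5 between 173 and 216 on all 6 arrays. These groups lay far apart for their spread, and the log ratio of Pdk4 rose by 1.36 ± 0.18 (adjusted p = 0.00196), a 2.74-fold difference in Cy3. Acot1 went from 315, 345 and 478 to 639, 703 and 1039 in Cy3, and its log ratio rose by 1.58 ± 0.16 (adjusted p = 3.21e-04), with Cy5 called lower, at -0.52. Both genes kept both calls whichever of the 6 arrays was left out, and with only the fed and 12 h arrays in the fit their Cy3 calls held (adjusted p = 0.0066 and 0.0433).

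Other genes of fatty-acid oxidation were called in both directions. Of 28 measured genes of β-oxidation and ketogenesis, 4 were called higher and 4 lower in the log ratio, and the 4 higher ones (14.3% against 3.69% of all genes in either direction) were called in Cy3 too. The median log ratio difference over all measured genes of this list was 0.13, against -0.03 over all genes with a symbol. Among the higher ones were Hadha, the α subunit of the mitochondrial trifunctional protein, and Acadvl, the dehydrogenase for very long chains. Hadha had Cy3 signals of 1389.8 and 1022 in the 2 fed pools and 2133 and 2238 in the 2 fasted pools with a value, and a log ratio 2.63-fold higher (adjusted p = 0.0139). Hadha lost its log ratio call without fed replicate 3 (adjusted p = 0.0904) and lost its Cy3 call without fed replicate 3 (adjusted p = 0.0856). Acadvl had 1 fed value, 239.8, and 2 fasted values, 1277 and 1099.7. Its log ratio difference of 3.47 ± 0.42 (adjusted p = 0.00245) treats that lone fed pool as varying like the other groups, could not be fitted without fed replicate 3, and was 1.68 with the flagged spots kept (adjusted p = 0.045).

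The 4 members called lower were Acat1, the mitochondrial acetoacetyl-CoA thiolase (-0.81 ± 0.17, adjusted p = 0.0108), Crot, the peroxisomal carnitine octanoyltransferase (-0.84 ± 0.19), Ehhadh, the peroxisomal bifunctional enzyme (-0.65 ± 0.20), and Etfa, the electron acceptor of the acyl-CoA dehydrogenases (-0.64 ± 0.18). None of these 4 was called in Cy3, where the differences were 0.00, -0.12, -0.02 and -0.22, while Cy5 was called higher by 0.81, 0.73, 0.63 and 0.42. The log ratio call of Acat1 held without each array in turn, but a second Acat1 probe differed in the other direction, by 0.64 in the log ratio and 0.33 in Cy3, neither called. Crot lost its call without fed replicate 1 or 3 (adjusted p = 0.0632 and 0.0622). Ehhadh lost its call without fed replicate 1 or 3 or 12 h replicate 1, 2 or 3 (adjusted p = 0.101, 0.172, 0.0548, 0.0805 and 0.0795). Etfa lost its call without fed replicate 1 or 3 or 12 h replicate 2 (adjusted p = 0.106, 0.123 and 0.0795).

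Of 18 measured genes grouped as PPARα, its partner Rxra and other targets, 7 were called higher and 1 lower in the log ratio (44.4% against 16.4% of all genes), and 5 of the 7 were called in Cy3. Scd1, the stearoyl-CoA desaturase, had Cy3 signals of 211, 238 and 209 in fed and 490.1, 547 and 544 in fasted pools. The 2 sets do not overlap, and the log ratio rose by 1.34 ± 0.28 (adjusted p = 0.0116) with a Cy5 difference of -0.08. Both calls of Scd1 held without each array. Ppargc1a, the coactivator PGC-1α, went from 5432, 7013 and 3432 in Cy3 to 14294 and 8562 in the 2 fasted pools with a value, with a log ratio difference of 1.13 ± 0.30 (adjusted p = 0.033). Ppargc1a lost its log ratio call without fed replicate 1 or 3 or 12 h replicate 3 (adjusted p = 0.0609, 0.0965 and 0.167) and lost its Cy3 call without fed replicate 1 or 3 or 12 h replicate 2 (adjusted p up to 0.206). Acot2, a mitochondrial thioesterase that the rule for named genes does not include and that was chosen after its values were seen, was the fifth, with a log ratio difference of 0.49 ± 0.14 and a Cy3 difference of 0.76. Ppara itself was called higher in the log ratio, by 1.02 ± 0.25 (adjusted p = 0.0219), with a Cy3 difference of -0.26. Its Cy3 signals were 233, 149 and 338 fed and 132, 353 and 145 fasted, which overlap, and the call came with Cy5 signals of 337, 239 and 286 on the fed against 62.0, 307 and 83.4 on the fasted arrays. Cy5 was low there on 12 h replicates 1 and 3. Ppara lost its call without fed replicate 1 or 2 (adjusted p = 0.0811 and 0.0749). The seventh was Ucp2, a mitochondrial carrier, also chosen after its values were seen, at 1.34 in the log ratio but -0.46 in Cy3. Rxra was not called, with Cy3 signals of 324, 293 and 103 fed and 312, 376 and 267 fasted. Me1, the cytosolic malic enzyme that supplies NADPH to lipogenesis, was the member called lower, at -0.77 ± 0.20, with a Cy3 difference of -0.28 that was not called, and lost its call without fed replicate 1 or 3 or 12 h replicate 3 (adjusted p = 0.0567, 0.102 and 0.0532). No promoter of the 19 fatty-acid, sterol, stress and clock genes searched held the PPAR response element, 2 half-sites spaced by 1 base and searched on both strands, which 0.38% of 32851 mouse promoters hold.

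**Figure D2:**
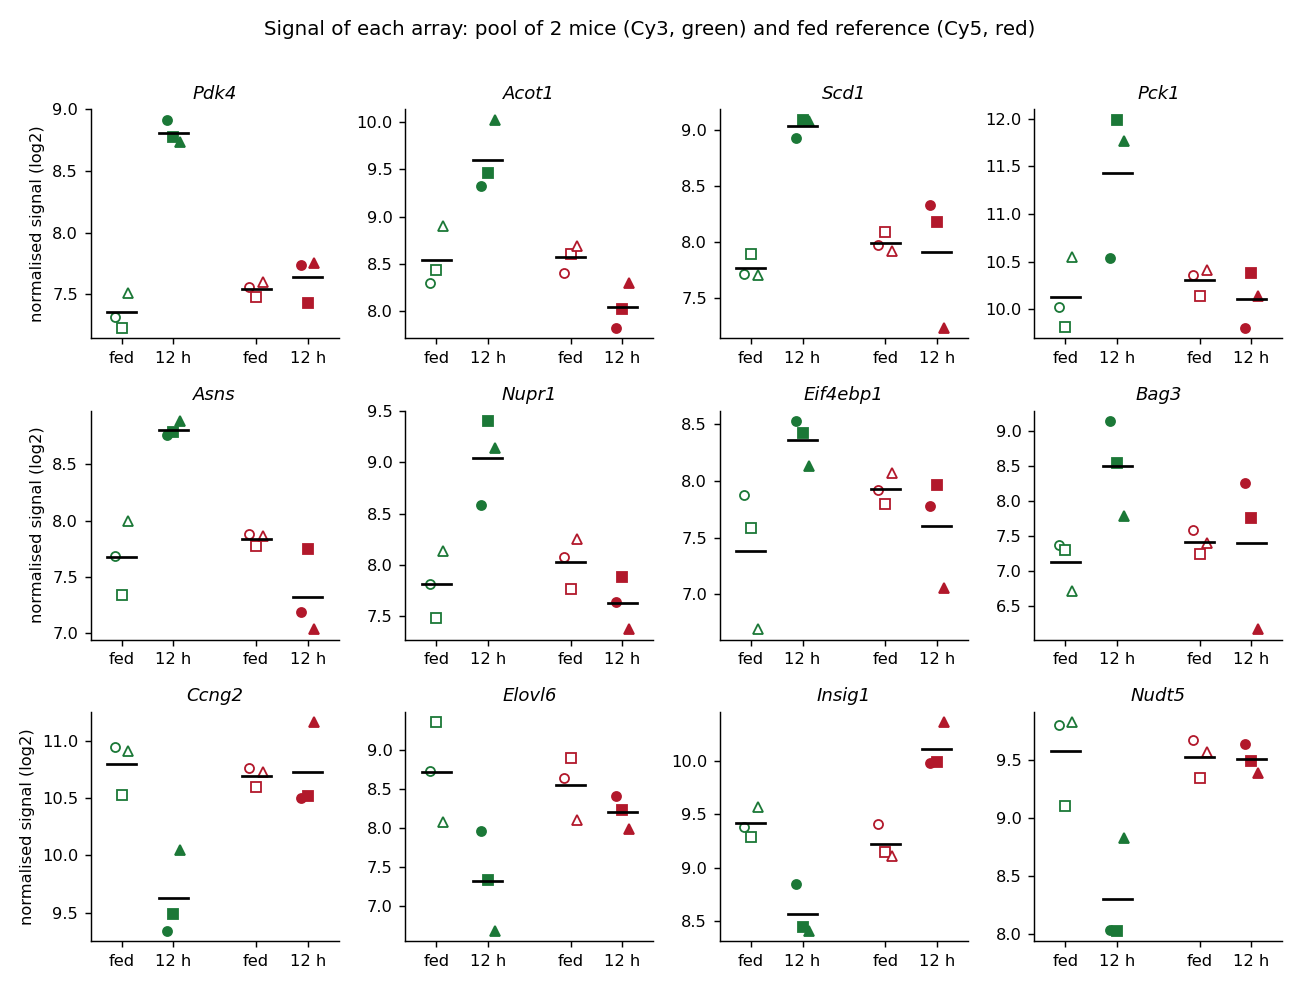
Normalised signal (y axes, log2) of 12 genes on each array, in Cy3 (green, the pool of 2 mice) and in Cy5 (red, the fed reference), for fed arrays (open) and 12 h arrays (filled). Circles, squares and triangles are replicates 1, 2 and 3, and bars are group means. The green symbols of Pdk4, Acot1, Scd1, Asns, Nupr1, Eif4ebp1 and Bag3 lie higher at 12 h, without overlap, those of Pck1 lie higher on 2 of 3 fasted arrays, and those of Ccng2, Elovl6, Insig1 and Nudt5 lie lower.

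Adipose tissue, which also makes Pdk4, Scd1, Pck1 and Fabp4, could be judged from 2 of 10 markers. The summed Cy3 signal of Fabp4 and Pparg was 551 to 840 in the fed and 1502 to 1703 in the fasted pools. Fabp4, the adipocyte fatty-acid binding protein, had Cy3 signals of 505, 430.2 and 747 fed and 1476, 1586 and 1391 fasted and was called in Cy3 (1.44 ± 0.27, adjusted p = 0.00273) but not in the log ratio (0.75 ± 0.32, adjusted p = 0.134), with Cy5 called higher by 0.69. Pparg differed by 0.06 in Cy3. The part of adipose RNA in the rises of lipid genes was not tested.

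The list of lipid synthesis and absorption had no member called higher in the log ratio among 19 measured. In it 4 were called lower, 3 of them also in Cy3 (15.8% against 3.69% of all genes). Scd1, called higher, and Me1, called lower, were counted with the PPARα targets and not in this list. In Cy3 1 member was called higher, the desaturase Fads2 (0.62, with a log ratio difference of 0.39 that was not called), chosen after its values were seen. Dgat2, which adds the last acyl chain to triglyceride, had 1 fed value in Cy3, 3876, and fasted values of 1123, 1047 and 1748. Its log ratio fell by 1.61 ± 0.33 units (adjusted p = 0.0156), with Cy5 at 0.00. The fit could not be made without fed replicate 3, and with flagged spots kept the difference was -1.29 (adjusted p = 0.00723). Elovl6, the elongase of palmitate, went from 426, 657 and 271 in Cy3 to 249.6, 161 and 103. These ranges do not touch, and its log ratio changed by -1.06 ± 0.22 (adjusted p = 0.0114), with both calls kept without each array, but a second, dimmer probe of Elovl6 differed by 0.52 in the log ratio and was not called. Apobec1, the editing enzyme of apolipoprotein B mRNA, measured 436, 412 and 546 fed and 262, 256 and 407 fasted in Cy3. Its log ratio fell by 1.01 ± 0.14 (adjusted p = 0.00207). Apobec1 lost its Cy3 call without fed replicate 1, 2 or 3 or 12 h replicate 1 or 2 (adjusted p up to 0.154).

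In the sterol pathway 3 of 22 measured genes were called higher and 1 lower in the log ratio (18.2%, close to the 16.4% of all genes). Insig1, which holds SREBP precursors in the endoplasmic reticulum, had Cy3 signals of 668, 625 and 760.1 fed and 462, 348 and 341 fasted. All fasted pools were below all fed pools, and the log ratio fell by 1.73 ± 0.21 (adjusted p = 0.00196), of which -0.84 was in Cy3 and 0.89 a rise in Cy5. Both calls of Insig1 held without each array. Fdps, the farnesyl diphosphate synthase, measured 376, 293 and 257 fed and 542, 589 and 545 fasted in Cy3, and its log ratio rose by 1.44 ± 0.28 (adjusted p = 0.00831). Fdps lost its Cy3 call without 12 h replicate 2 (adjusted p = 0.0511). Mvk, mevalonate kinase, and Ebp, a sterol isomerase, were called higher in the log ratio alone, by 0.88 ± 0.26 and 1.38 ± 0.39, with Cy3 differences of 0.03 and 0.55. Mvk lost its call without fed replicate 1 or 3 or 12 h replicate 2 or 3 (adjusted p = 0.112, 0.166, 0.0944 and 0.114). Ebp lost its call without fed replicate 1 or 3 or 12 h replicate 2 or 3 (adjusted p = 0.056, 0.0551, 0.156 and 0.066).

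Of 32 measured genes of glycolysis, gluconeogenesis and pyruvate oxidation, 5 were called higher and 3 lower (25.0% against 16.4% of all genes). Of these, 3 higher ones were also called in Cy3. Pck1, the phosphoenolpyruvate carboxykinase that draws carbon from the citric-acid cycle, had Cy3 signals of 1045, 904 and 1494 in fed and 1485, 4058 and 3485 in fasted pools. Replicates 2 and 3 lay far above the fed pools, while 12 h replicate 1 was just below the highest fed value. The log ratio of Pck1 rose by 1.49 ± 0.25 (adjusted p = 0.00469), without overlap, with Cy5 lowest on 12 h replicate 1 (895, 1334 and 1130.0). Both calls of Pck1 held without each array. Gapdh measured 5878, 8798 and 4258 fed and 10576, 10253 and 10008 fasted in Cy3, with Cy5 signals of 9983, 10129 and 11518 on the fed and 8347, 7220.1 and 998 on the fasted arrays, the last of which stands apart. Its log ratio rose by 2.19 ± 0.56 (adjusted p = 0.0264). Gapdh lost its log ratio call without fed replicate 1 or 3 (adjusted p = 0.0692 and 0.113) and lost its Cy3 call without fed replicate 1 or 3 or 12 h replicate 1 or 2 (adjusted p up to 0.0845). A second, dimmer Gapdh probe was not called at 0.28. Pdhx, a subunit of the pyruvate dehydrogenase complex, and Pdk1 were called lower in the log ratio, at -0.96 ± 0.18 and -0.70 ± 0.17, with Cy3 differences of -0.44 and 0.04, neither called. Pdhx kept its call without each array. Pdk1 lost its call without fed replicate 1 or 3 or 12 h replicate 3 (adjusted p = 0.0796, 0.074 and 0.052).

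**Figure D3:**
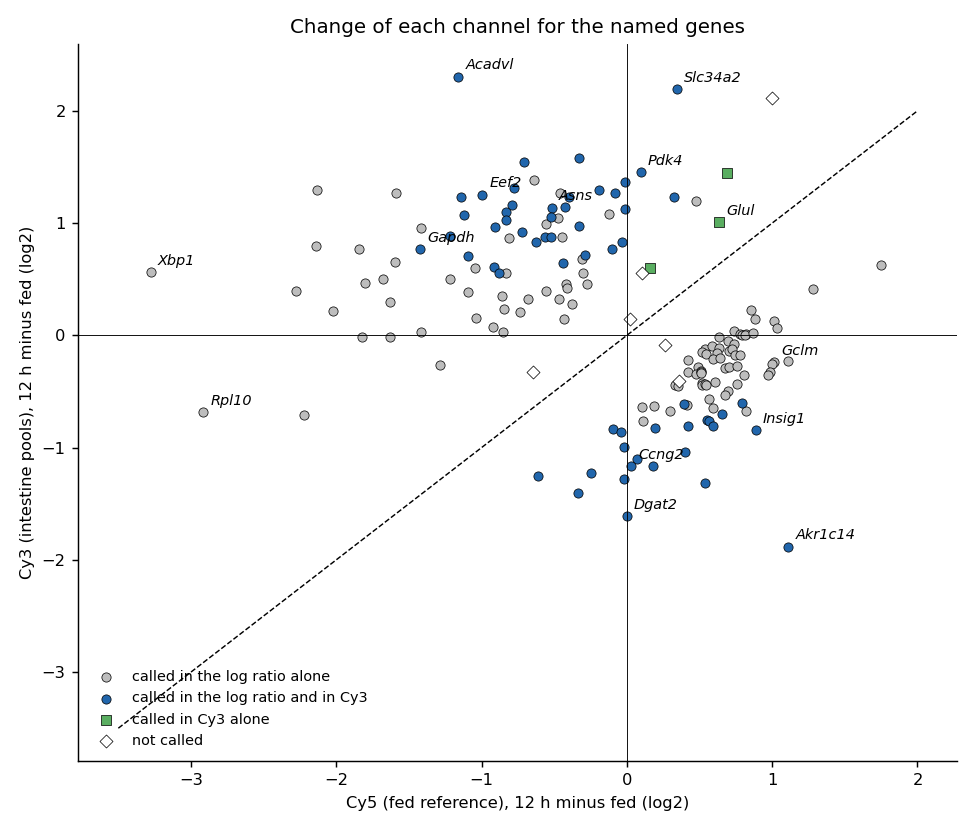
Difference between fasted and fed arrays in Cy3 (y axis, log2, intestine pools) against that in Cy5 (x axis, log2, fed reference) for the 175 named genes, by call. On the dashed line the log ratio does not differ. Pdk4 and Ccng2 lie near the vertical line of no Cy5 difference, and Xbp1 and Rpl10 lie far to the left of it, at Cy5 differences of -3.28 and -2.92.

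Genes that make glutamine and asparagine had more signal in the fasted pools. Glul, glutamine synthetase, had Cy3 signals of 309, 312 and 271 fed and 697, 625 and 489 fasted, 2.01-fold apart and without overlap. It was called in Cy3 (1.01 ± 0.18, adjusted p = 0.00222), as was a second Glul probe (1.26), but not in the log ratio (0.38 ± 0.19, adjusted p = 0.201), with Cy5 higher by 0.63. Asns, asparagine synthetase, measured 206, 162 and 255 fed and 433, 442 and 474 fasted, so that the lowest fasted pool was well above the highest fed one. Its log ratio rose by 1.65 ± 0.22 (adjusted p = 0.00196) with Cy3 at 1.14 ± 0.18, and it kept both calls without each array and its Cy3 call with only the fed and 12 h arrays (adjusted p = 0.0199). Got2, the mitochondrial aspartate aminotransferase, went from 445 and 239 in the 2 fed pools with a value to 577, 556 and 607, and its log ratio rose by 1.45 ± 0.35 (adjusted p = 0.0234). A second Got2 probe, which exceeded the negative controls on no fed array, was called in Cy3 (0.84) but not in the log ratio (0.33). Got2 lost its log ratio call without fed replicate 3 (adjusted p = 0.188) and lost its Cy3 call without fed replicate 1 or 3 or 12 h replicate 1, 2 or 3 (adjusted p up to 0.283). Srm, spermidine synthase, measured 135, 122 and 155 fed and 202, 240.1 and 262 fasted in Cy3, without overlap. A rise of 0.88 ± 0.20 was called in its log ratio (adjusted p = 0.0168). Srm lost its log ratio call without fed replicate 3 (adjusted p = 0.0583).

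In all, 3 of the 22 measured genes of glutamine, glutamate, proline and arginine metabolism were called higher and 4 lower (31.8% against 16.4% of all genes). The 3 higher ones (13.6% against 3.69%) were called in Cy3. Prodh, proline dehydrogenase, was called in Cy3 alone (0.60 ± 0.19, adjusted p = 0.0418), with signals of 232, 240.0 and 305 fed and 404, 333 and 439 fasted, and lost that call without 4 of the 6 arrays (adjusted p up to 0.145). The 4 lower ones were Gclm, the modifier subunit of glutathione synthesis (-1.25 ± 0.21), Glud1, glutamate dehydrogenase (-0.99 ± 0.21), Gnpnat1 (-1.04 ± 0.25) and Got1, the cytosolic aminotransferase (-0.89 ± 0.25). In Cy3 they differed by -0.24, -0.44, -0.62 and 0.12, with no call, and in Cy5 by 1.01, 0.55, 0.41 and 1.01. Gclm kept its log ratio call without each array. Glud1 lost its call without fed replicate 3 or 12 h replicate 3 (adjusted p = 0.052 and 0.068). Gnpnat1 lost its call without fed replicate 1 or 3 or 12 h replicate 2 or 3 (adjusted p = 0.0695, 0.0742, 0.0539 and 0.0526). Got1 lost its call without fed replicate 1, 2 or 3 or 12 h replicate 2 or 3 (adjusted p = 0.056, 0.0549, 0.125, 0.0918 and 0.105), and its second probe stood at -0.13, not called. Oat, ornithine aminotransferase, missed the threshold at -0.77 ± 0.24 (adjusted p = 0.0546), and Bcat1, Gclc and H2-Ab1 were not called (-0.35 ± 0.16, 0.32 ± 0.41 and 0.12 ± 0.20).

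Among 26 measured genes of branched-chain, aromatic, sulphur and one-carbon metabolism, 2 were called lower in the log ratio, both also in Cy3, and none higher (7.69% against 16.4% of all genes). In Cy3 alone 4 were called higher, chosen here after their values were seen: Gldc, of glycine cleavage (0.97), Bckdha, of branched-chain keto acid oxidation (0.81), Psat1, of serine synthesis (0.62), and Tdo2, a tryptophan dioxygenase (0.62). Of all 8074 genes, 468 were called higher and 771 lower in Cy3. Mccc1, a subunit of the carboxylase of leucine breakdown, had Cy3 signals of 307, 300.3 and 242 fed and 140.1, 137 and 148 fasted. The fasted values were close together, and the log ratio fell by 0.97 ± 0.25 (adjusted p = 0.0277) with Cy5 at -0.02. Mccc1 lost its log ratio call without fed replicate 1, 2 or 3 or 12 h replicate 3 (adjusted p = 0.086, 0.0631, 0.0677 and 0.0715). Mat2a, which makes S-adenosylmethionine, went from 952, 685 and 866 to 364, 528 and 614 in Cy3. Its log ratio fell by 1.30 ± 0.22 (adjusted p = 0.00529). Mat2a lost its Cy3 call without fed replicate 1 or 3 or 12 h replicate 1 (adjusted p up to 0.103).

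Nupr1, a stress-induced chromatin protein, and Asns, both known as targets of ATF4, rose in the log ratio and in Cy3, and with Canx they were the 3 members of the amino-acid and endoplasmic-reticulum stress list called in both measures. Nupr1 had Cy3 signals of 225, 179 and 281 fed and 383, 678 and 563 fasted. Its groups do not overlap, its log ratio rose by 1.63 ± 0.26 (adjusted p = 0.00414), and both calls held without each array. The calnexin gene Canx, a chaperone of glycoprotein folding, measured between 97.8 and 114 fed and 181, 279 and 124 fasted and was called in the log ratio (0.86 ± 0.21, adjusted p = 0.0218). Canx lost its log ratio call without fed replicate 1 or 3 (adjusted p = 0.0749 and 0.0577) and lost its Cy3 call without fed replicate 1, 2 or 3 or 12 h replicate 1 or 2 (adjusted p up to 0.158). Of 24 measured members 4 were called higher and 1 lower (20.8% against 16.4% of all genes), and 3 higher ones were called in Cy3 (12.5%). The list's median log ratio difference was -0.09, with Atf4 at -0.08, Atf3 at -0.11 and Trib3 at -0.36. Xbp1, a transcription factor of the unfolded protein response, had the largest log ratio difference of the list, 3.84 ± 0.66 (adjusted p = 0.00649), from 1 fasted array. Its Cy3 signal there was 1148, inside the fed range of 1222, 1367 and 281, and its Cy5 signal was 114 against 1091, 1079 and 1150.2 on the fed arrays. With flagged spots kept Xbp1 was not called (1.97, adjusted p = 0.0735). Dnajb9, a cochaperone of the same response, was called lower (-0.97 ± 0.19) with a Cy3 difference of -0.29.

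The promoters of Asns and Nupr1 are shown because both genes rose in Cy3 and both hold the amino-acid response element TGATGNAA, searched on both strands, which 3.97% of 32851 mouse promoters of the same length hold. Each sequence runs 5′ to 3′ along the gene's strand from 250 bases before to 50 bases after the start of the RefSeq gene in GRCm38.p6, with the match in capitals. The match is the element itself on the Asns strand, 23 bases before the start, and its reverse complement in Nupr1, 110 bases before the start. Asns lies at chr6:7693160-7693459 on the minus strand and Nupr1 at chr7:126625421-126625720 on the minus strand. A match describes letters and not binding.
Asns: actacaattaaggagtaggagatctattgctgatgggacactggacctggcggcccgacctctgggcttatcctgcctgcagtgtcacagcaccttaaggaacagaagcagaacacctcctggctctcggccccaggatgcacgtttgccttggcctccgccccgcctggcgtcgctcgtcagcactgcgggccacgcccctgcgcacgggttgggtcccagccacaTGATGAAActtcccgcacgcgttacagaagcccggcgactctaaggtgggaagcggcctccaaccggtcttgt
Nupr1: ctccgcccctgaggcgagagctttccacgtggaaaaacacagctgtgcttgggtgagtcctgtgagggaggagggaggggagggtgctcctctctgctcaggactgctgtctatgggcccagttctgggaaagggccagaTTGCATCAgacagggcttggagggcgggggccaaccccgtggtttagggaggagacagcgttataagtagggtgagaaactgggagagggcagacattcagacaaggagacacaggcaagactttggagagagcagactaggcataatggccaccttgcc

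The clock genes Arntl and Ciart changed in opposite directions. Arntl, which encodes BMAL1, the positive arm of the clock, had Cy3 signals of 95.1, 90.5 and 92.4 fed and 149, 153 and 133 fasted. It was not well above background on any fed array, so the size of its change is also given with a floor set on the fed signal. A rise was called in the log ratio (1.08 ± 0.16, adjusted p = 0.0023) and in Cy3 (0.64 ± 0.19, adjusted p = 0.0362). For this, each fed array was set to no less than its dimmest probe well above background, after loess and Aquantile normalisation. Arntl was then 1.33-fold higher in Cy3, against measured means of 6.50 fed and 7.01 fasted in log2 signal, values open to dye bias. The flag for well above background passed 58.8% to 68.8% of probes on the fed and 85.8% to 99.3% on the 12 h arrays. The 1.33-fold value is therefore not a strict lower bound. Arntl lost its Cy3 call without fed replicate 1, 2 or 3 or 12 h replicate 1 or 2 (adjusted p up to 0.0977). Ciart, the repressor CHRONO of BMAL1 activity, measured 179, 132 and 347 fed and 84.4, 82.9 and 119 fasted in Cy3. All fasted values were below the fed ones, and its log ratio fell by 1.17 ± 0.24 (adjusted p = 0.0114) with Cy5 at 0.07. Ciart lost its Cy3 call without 12 h replicate 2 (adjusted p = 0.052). Bhlhe40, another repressor, was called lower in the log ratio, at -1.34 ± 0.18 (adjusted p = 0.00196), with overlapping Cy3 signals of 203, 409.9 and 375 fed and 205, 255 and 367 fasted and a Cy5 rise of 1.11. The other 8 of 11 measured clock genes, Clock (0.13), Npas2 (0.35), Cry1 (-0.54) and Cry2 (0.50) among them, were not called in the log ratio. The called share of this list was 27.3%, against 16.4% of all genes.

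The promoters of both are printed as above, for their opposite changes. In Arntl the capitals mark a match to the response element of the ROR and REV-ERB receptors (2.46% of promoters), 27 bases after the start, and in Ciart the 3 copies of the E-box CACGTG (7.15% of promoters) at 116, 58 and 44 bases before the start. The E-box reads the same on both strands and is the letter pattern bound by BMAL1 with CLOCK. It was held by 4 of the 19 promoters searched, those of Ciart, Dnajb9, Insig1 and Nupr1, so it is not particular to the clock gene. Arntl lies at chr7:113207261-113207560 on the plus strand and Ciart at chr3:95882179-95882478 on the minus strand.
Arntl: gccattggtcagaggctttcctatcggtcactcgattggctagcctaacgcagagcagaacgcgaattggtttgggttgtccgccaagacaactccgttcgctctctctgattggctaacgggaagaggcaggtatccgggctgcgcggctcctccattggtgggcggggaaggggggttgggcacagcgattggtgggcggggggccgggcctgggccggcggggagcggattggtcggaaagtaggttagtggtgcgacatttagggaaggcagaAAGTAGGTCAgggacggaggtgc
Ciart: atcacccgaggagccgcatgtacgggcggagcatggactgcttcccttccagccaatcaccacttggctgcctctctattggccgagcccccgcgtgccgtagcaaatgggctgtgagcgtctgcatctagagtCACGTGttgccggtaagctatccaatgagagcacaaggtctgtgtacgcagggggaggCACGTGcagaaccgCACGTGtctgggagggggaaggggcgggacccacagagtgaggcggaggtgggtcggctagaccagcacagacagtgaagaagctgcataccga

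The largest rises called in both measures, with no overlap of the log ratio, were those of Slc44a4, Dusp9, Eef2, Rpl28, Gapdh, Pdlim1, Eif3f, Vdr, Gpx3, Aldh1b1, Rnpep and Actg2, from 2.37 to 1.80. Slc44a4, the carrier of thiamine pyrophosphate in the gut, had Cy3 signals of 329, 327 and 165 fed and 631, 601 and 604 fasted, and Cy5 signals of 359.7, 329 and 368 on the fed and 173, 235 and 99.2 on the fasted arrays. Cy3 was higher and Cy5 lower on all 3 fasted arrays, and the log ratio rose by 2.37 ± 0.32 (adjusted p = 0.00196). Dusp9, a phosphatase of MAP kinases, went from 406, 461 and 223 to 878, 1188 and 999 in Cy3, with a log ratio rise of 2.25 ± 0.34 (adjusted p = 0.00316), but a second Dusp9 probe was not called (0.18). Vdr, the vitamin D receptor that governs calcium uptake, measured 483, 488 and 276 fed and 911, 1370.3 and 585 fasted and rose by 1.95 ± 0.28 (adjusted p = 0.00227). A second Vdr probe was called in both measures too (1.58), and another in Cy3 alone (1.37). Gpx3, a secreted glutathione peroxidase, rose by 1.93 ± 0.33 (adjusted p = 0.00529), with a second, dimmer probe at -0.49 that was not called. For all 12 genes the highest log ratio was that of 12 h replicate 3, where Cy5 was lowest of the 6 arrays, and the lowest was that of fed replicate 3, whereas Cy3 did not overlap between the states. Without fed replicate 3 the log ratio calls of Rpl28, Gapdh, Pdlim1, Eif3f, Aldh1b1, Rnpep and Actg2 were lost, at adjusted p-values of 0.121, 0.113, 0.126, 0.0615, 0.134, 0.124 and 0.0623. Those of Rpl28, Gapdh, Pdlim1, Aldh1b1 and Rnpep were also lost without fed replicate 1 (0.056, 0.0692, 0.066, 0.0584 and 0.0536), and those of Aldh1b1 and Rnpep without 12 h replicate 3 (0.0652 and 0.0546). Vdr lost its Cy3 call without 12 h replicate 2 (adjusted p = 0.0585). Gpx3 lost its Cy3 call without 12 h replicate 1 or 2 (adjusted p up to 0.0583). Pdlim1, Aldh1b1, Rnpep and Actg2 also lost the Cy3 call without fed replicate 3 and other single arrays (highest adjusted p 0.0965, 0.107, 0.098 and 0.0862). Slc44a4, Dusp9 and Eef2 kept both calls.

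The largest falls were those of Akr1c14, Thra, Insig1, Plscr1, Rpa3, Cmc1, Tbce, Tcrb-J, Akr1e1, Mat2a, Nudt5 and Dipk2a, from -2.99 to -1.23. Akr1c14, a hydroxysteroid dehydrogenase of the aldo-keto reductases, had Cy3 signals of 588, 327 and 640.0 fed and 79.9, 157 and 196 fasted. Its Cy5 signal went the other way, from 512, 423 and 446 to 748, 885 and 1468, and the log ratio fell by 2.99 ± 0.26 (adjusted p = 1.70e-04). Of this, -1.88 was in Cy3, a 3.68-fold difference. Nudt5, a hydrolase of ADP-ribose, went from 892, 550.5 and 905 to 262, 261 and 454 in Cy3 with Cy5 at -0.02, and its log ratio fell by 1.26 ± 0.24 (adjusted p = 0.00773). Plscr1, a phospholipid scramblase, measured 961, 585 and 1017 fed and 371, 385 and 461 fasted, a log ratio difference of -1.44 ± 0.18 (adjusted p = 0.00196). The T cell receptor probe Tcrb-J went from 201, 174 and 202 to 98.3, 83.7 and 76.7 and changed by -1.34 ± 0.27 (adjusted p = 0.00952). Thra, the thyroid hormone receptor α of crypt growth, changed by -1.86 ± 0.24 (adjusted p = 0.00196), with Cy3 signals of 497, 289 and 672 fed and 103, 196 and 307 fasted that overlap. Among the 12, only Tbce lost its log ratio call, without fed replicate 3 (adjusted p = 0.0599), and Akr1c14, Insig1, Plscr1, Tcrb-J and Nudt5 kept both calls without each array. A second, brighter Tbce probe stood at 0.06 in the log ratio and was not called. Thra, Rpa3, Cmc1, Tbce, Akr1e1, Mat2a and Dipk2a lost the Cy3 call without fed replicate 1, and all of these but Rpa3 without other single arrays as well (highest adjusted p 0.0581, 0.0704, 0.144, 0.0951, 0.106, 0.103 and 0.13).

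**Figure D4:**
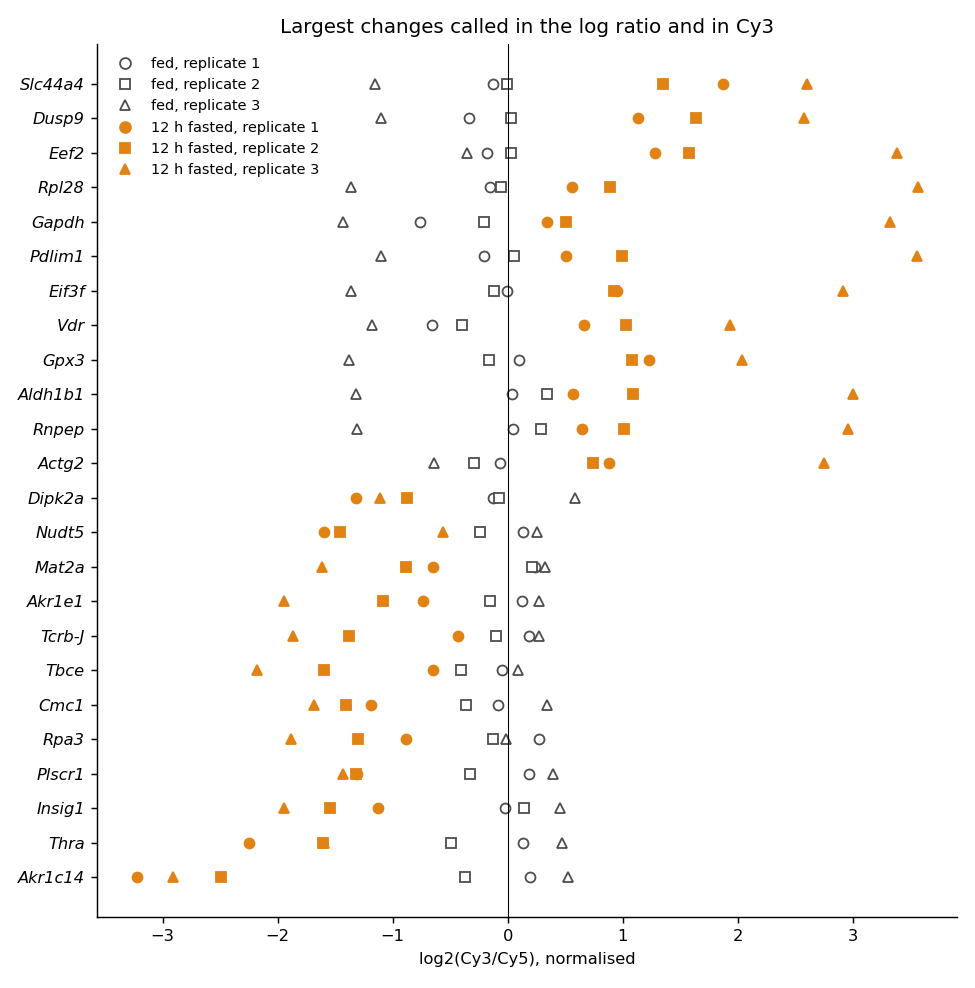
Log ratio, log2(Cy3/Cy5) after normalisation (x axis), of each array for the 12 largest rises and 12 largest falls called in the log ratio and in Cy3 (y axis), with fed arrays open and 12 h arrays filled. Circles, squares and triangles are replicates 1, 2 and 3. For every rise the 12 h triangle lies farthest right and the fed triangle farthest left.

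Translation factors were called often and in both directions, with 9 of 33 measured genes higher and 6 lower (45.5% against 16.4% of all genes), and 3 higher ones called in Cy3. Eef2, the factor of ribosome translocation, had Cy3 signals of 2751, 2945 and 2964 fed and 6553, 7459 and 6668 fasted, a 2.39-fold difference with little spread in either state. Its log ratio rose by 2.25 ± 0.38 (adjusted p = 0.00497), while Cy5 was 2689, 2495 and 636 on the fasted arrays. A second, dimmer Eef2 probe was not called (1.16). Eif4ebp1, the repressor of cap-dependent translation, measured 235, 192 and 103 fed and 369.5, 343 and 281 fasted, without overlap. Its log ratio rose by 1.31 ± 0.27 (adjusted p = 0.012), and both calls held without each array. Eif4e, the cap-binding factor it restrains, was called lower in the log ratio (-0.82 ± 0.19), with a Cy3 difference of -0.08 and a Cy5 difference of 0.74, and lost its call without fed replicate 1 or 3 or 12 h replicate 3 (adjusted p = 0.0616, 0.0646 and 0.115).

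Of 56 measured cytosolic ribosomal proteins 5 were called higher and 3 lower in the log ratio (14.3%, below the 16.4% of all genes). In Cy3 3 were called higher and 3 lower, against 468 and 771 of all 8074 genes, and Rpl28 was the one called in both. Rpl28 had Cy3 signals of 5939.6, 6193 and 1999 fed and 10846, 9659 and 6582 fasted, and a Cy5 signal of 553 on 12 h replicate 3 against 5153 or more on the other arrays. Rpl10 had a log ratio difference of 2.24 ± 0.56 but Cy3 signals of 8479.8, 6665 and 3978 fed and 582, 10856 and 8636 fasted, the first fasted value being the lowest of all. The Cy5 signals of Rpl10 on the fasted arrays were 386, 4408 and 687. Rpl10 lost its call without fed replicate 3 (adjusted p = 0.112). Rpl28 lost its log ratio call without fed replicate 1 or 3 (adjusted p = 0.056 and 0.121) and lost its Cy3 call without fed replicate 3 or 12 h replicate 1 or 2 (adjusted p up to 0.134). Of 17 tRNA synthetases, Farsa and Farsb, the subunits of the phenylalanine enzyme, were called higher in the log ratio (0.87 ± 0.15 and 0.95 ± 0.24), neither in Cy3. Their share of the list was 11.8%, below the 16.4% of all genes. Farsa kept its call without each array, and Farsb lost its call without fed replicate 1 or 3 (adjusted p = 0.0622 and 0.0947). Among 28 chaperones 5 were called higher and 3 lower in the log ratio (28.6% against 16.4% of all genes). Bag3 and Hsp90ab1 were called higher in both measures. Hsp90ab1, a cytosolic HSP90, lost its log ratio call without fed replicate 3 (adjusted p = 0.0518) and lost its Cy3 call without fed replicate 2 or 3 or 12 h replicate 2 (adjusted p up to 0.0742), and of its 2 dimmer probes one was called in the log ratio (3.03) and the other was not (0.11). Bag3, a cochaperone of selective autophagy, had Cy3 signals of 166, 158 and 105 fed and 567, 376 and 222 fasted. The log ratio of Bag3 rose by 1.38 ± 0.26 (adjusted p = 0.00733) with Cy5 at -0.01, and both calls held without each array.

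Many mitochondrial genes were called lower in the log ratio with little difference in Cy3. In respiratory complex I 7 of 26 measured subunits were called lower and 1 higher (30.8%), none in Cy3, with a median log ratio difference of -0.27 made up of -0.06 in Cy3 and 0.24 in Cy5. Ndufb2, the subunit with the largest fall, had Cy3 signals of 1552, 1004 and 1266 fed and 1166, 841 and 967 fasted, which overlap. Its Cy5 signals were 1305, 1171 and 1180.3 and 2095, 1932 and 3375, higher on every fasted array, and its log ratio fell by 1.33 ± 0.22 (adjusted p = 0.00493). Of 63 genes of the mitochondrial ribosome and import 16 were called lower and 2 higher (28.6%), and 1 of these, Mrpl1, was called in Cy3. Mrpl1 went from 403, 485 and 536 to 171 and 229 in the 2 fasted pools with a value, and its Cy5 signal was lower as well, at -0.61. Mrpl1 differed by -0.64 ± 0.16 in the log ratio, and lost its log ratio call without fed replicate 1, 2 or 3 or 12 h replicate 2 (adjusted p = 0.0866, 0.0612, 0.0516 and 0.101). ATP synthase had 5 of 14 subunits called lower and 2 higher (50.0%), none in Cy3. Complexes II to IV had 5 of 23 lower and 4 higher (39.1%), against 16.4% of all genes called. Cox7a2l, an assembly factor of respiratory supercomplexes, was the one called in Cy3, with signals of 814 and 267 in the 2 fed pools with a value and 2406, 1368 and 826 fasted (log ratio 1.91 ± 0.40). Cox7a2l lost its log ratio call without fed replicate 3 (adjusted p = 0.11) and lost its Cy3 call without fed replicate 1 or 3 or 12 h replicate 1 or 2 (adjusted p up to 0.336). In the citric-acid cycle 3 of 20 genes were called higher and 2 lower (25.0%), none of these in Cy3. The list's median difference was 0.05 in Cy3 and -0.59 in Cy5. Ogdh, of the 2-oxoglutarate dehydrogenase, was higher by 1.49 ± 0.44 and lost its call without fed replicate 1, 2 or 3 or 12 h replicate 3 (adjusted p = 0.0947, 0.0596, 0.153 and 0.0673).

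Cell cycle and DNA replication genes were called lower in 16 of 78 cases and higher in 1 (21.8% against 16.4% of all genes, and 20.5% against 9.35% for lower calls), and 5 falls and 1 rise were called in Cy3 as well (7.69% against 3.69%). Ccng2, a cyclin of quiescent cells and a FoxO target, had Cy3 signals of 1970.2, 1476 and 1926 fed and 649, 719 and 1057 fasted. All fasted pools were below all fed pools, and the log ratio fell by 1.20 ± 0.15 (adjusted p = 0.00196) with Cy5 at 0.03, and both calls held without each array. The other falls called in both were of replication genes. Rpa3, a subunit of replication protein A, went from 541, 333 and 410.3 to 282, 226 and 216 in Cy3 and changed by -1.40 ± 0.21 (adjusted p = 0.00302). Rfc4, of the clamp loader, measured 151, 135 and 221 fed and 106, 71.1 and 99.4 fasted. Cdc45, of the replicative helicase, measured 130.4, 126 and 173 and 65.9, 87.8 and 86.2. Their log ratios changed by -0.82 ± 0.20 and -0.74 ± 0.18. Rfc4 lost its log ratio call without fed replicate 1 or 3 or 12 h replicate 3 (adjusted p = 0.0727, 0.0739 and 0.0532) and lost its Cy3 call without 12 h replicate 2 (adjusted p = 0.064). Cdc45 lost its log ratio call without fed replicate 1 or 3 (adjusted p = 0.0649 and 0.0794). Rpa3 lost its Cy3 call without fed replicate 1 (adjusted p = 0.0704). Mcm3, of the same helicase, chosen after its values were seen, differed by -0.52 ± 0.15 in the log ratio, by -1.42 in Cy3 and by -0.90 in Cy5. Plk1, a mitotic kinase, was the one rise, from 471, 755 and 609.7 to 1607, 1285 and 1373 in Cy3 (0.91 ± 0.22 in the log ratio, adjusted p = 0.0204), and had a second, dimmer probe that was not called (0.23). Plk1 lost its log ratio call without fed replicate 1 or 2 (adjusted p = 0.0775 and 0.0654). Pcna and Rb1 were called lower in the log ratio (-0.83 ± 0.24 and -0.84 ± 0.21), without a Cy3 call. Pcna lost its call without fed replicate 1 or 3 or 12 h replicate 2 or 3 (adjusted p = 0.0834, 0.131, 0.057 and 0.171). Rb1 lost its call without fed replicate 3 (adjusted p = 0.0815), and its second probe stood at -0.21, not called.

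Apoptosis genes were called lower in 7 of 40 cases and higher in 1 in the log ratio (20.0%, close to the 16.4% of all genes). In Cy3 4 were called lower and 1 higher, against 771 and 468 of all 8074 genes. Birc2, an inhibitor of apoptosis, had the largest log ratio fall of the list, kept without each array (-1.13 ± 0.15, adjusted p = 0.00196), and its Cy3 difference of -0.56 was not called. Casp6 was called lower in the log ratio (-0.66 ± 0.19) with a Cy3 difference of -0.12, and lost its call without fed replicate 1 or 3 or 12 h replicate 2 or 3 (adjusted p = 0.12, 0.129, 0.101 and 0.0716).

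At the brush border 5 of 33 enzymes and transporters were called higher and 5 lower (30.3% against 16.4% of all genes). Slc34a2, the phosphate transporter of the apical membrane, had Cy3 signals of 178, 154 and 232 fed and 861 and 833 in the 2 fasted pools with a value, 4.57-fold apart. The log ratio of Slc34a2 rose by 1.85 ± 0.27 (adjusted p = 0.00294) with Cy5 at 0.35, and the calls held without each array, while a second, dimmer probe was not called (0.14). Lct, the lactase, had 1 fed value in Cy3, 7897, against 2986 and 3817 in 2 fasted pools. Its log ratio call (-0.98 ± 0.25, adjusted p = 0.0407) did not hold with flagged spots kept (-0.56, adjusted p = 0.13). Lct lost its log ratio call without fed replicate 1 or 2 or 12 h replicate 2 or 3 (adjusted p = 0.0668, 0.0533, 0.0576 and 0.0769) and could not be fitted without fed replicate 3 and lost its Cy3 call without 12 h replicate 2 (adjusted p = 0.064). Anpep, aminopeptidase N, had a log ratio difference of 3.43 ± 0.78 (adjusted p = 0.0162) but overlapping Cy3 signals of 5141, 9298 and 1277 fed and 9838, 13405 and 6880.1 fasted, and its Cy5 signal on 12 h replicate 3 was 296 against 5607 or more elsewhere. Anpep lost its call without fed replicate 3 (adjusted p = 0.0783). Slc2a2, the basolateral glucose and fructose carrier, and Car2, a carbonic anhydrase, were called lower, at -0.74 ± 0.21 and -1.31 ± 0.22, with Cy3 at -0.63 and -0.32, not called. Car2 kept its call without each array, while Slc2a2 lost its call without fed replicate 1, 2 or 3 or 12 h replicate 1 or 2 (adjusted p = 0.0534, 0.0811, 0.129, 0.0624 and 0.0577). Cubn, the receptor of intrinsic factor, was called lower, at -1.21 ± 0.34 (adjusted p = 0.0419). Cubn lost its call without fed replicate 1 or 3 or 12 h replicate 3 (adjusted p = 0.0667, 0.132 and 0.249).

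Of 22 genes of xenobiotic and retinoid metabolism 4 were called lower and 1 higher (22.7% against 16.4% of all genes). Aldh1a1, which makes retinoic acid, went from 3978, 3054 and 4927 in Cy3 to 1899.7 and 2575 in the 2 fasted pools with a value, a log ratio difference of -1.02 ± 0.18 (adjusted p = 0.00801). Aldh1a1 lost its Cy3 call without fed replicate 1 or 3 or 12 h replicate 2 (adjusted p up to 0.194). Of 38 lysosome and autophagy genes 5 were called higher and 2 lower (18.4%) and of 51 proteasome and ubiquitin genes 4 higher and 6 lower (19.6%). Both shares are close to the 16.4% of all genes, and none of these genes was called in Cy3 in the same direction. Psap, the precursor of the saposins, rose by 1.93 ± 0.46 in the log ratio with 0.30 in Cy3, and Uba1, the ubiquitin-activating enzyme, by 2.17 ± 0.44 with 0.50. Psap lost its call without fed replicate 1 or 3 (adjusted p = 0.0568 and 0.0904). Uba1 lost its call without fed replicate 3 (adjusted p = 0.0504).

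**Figure D5:**
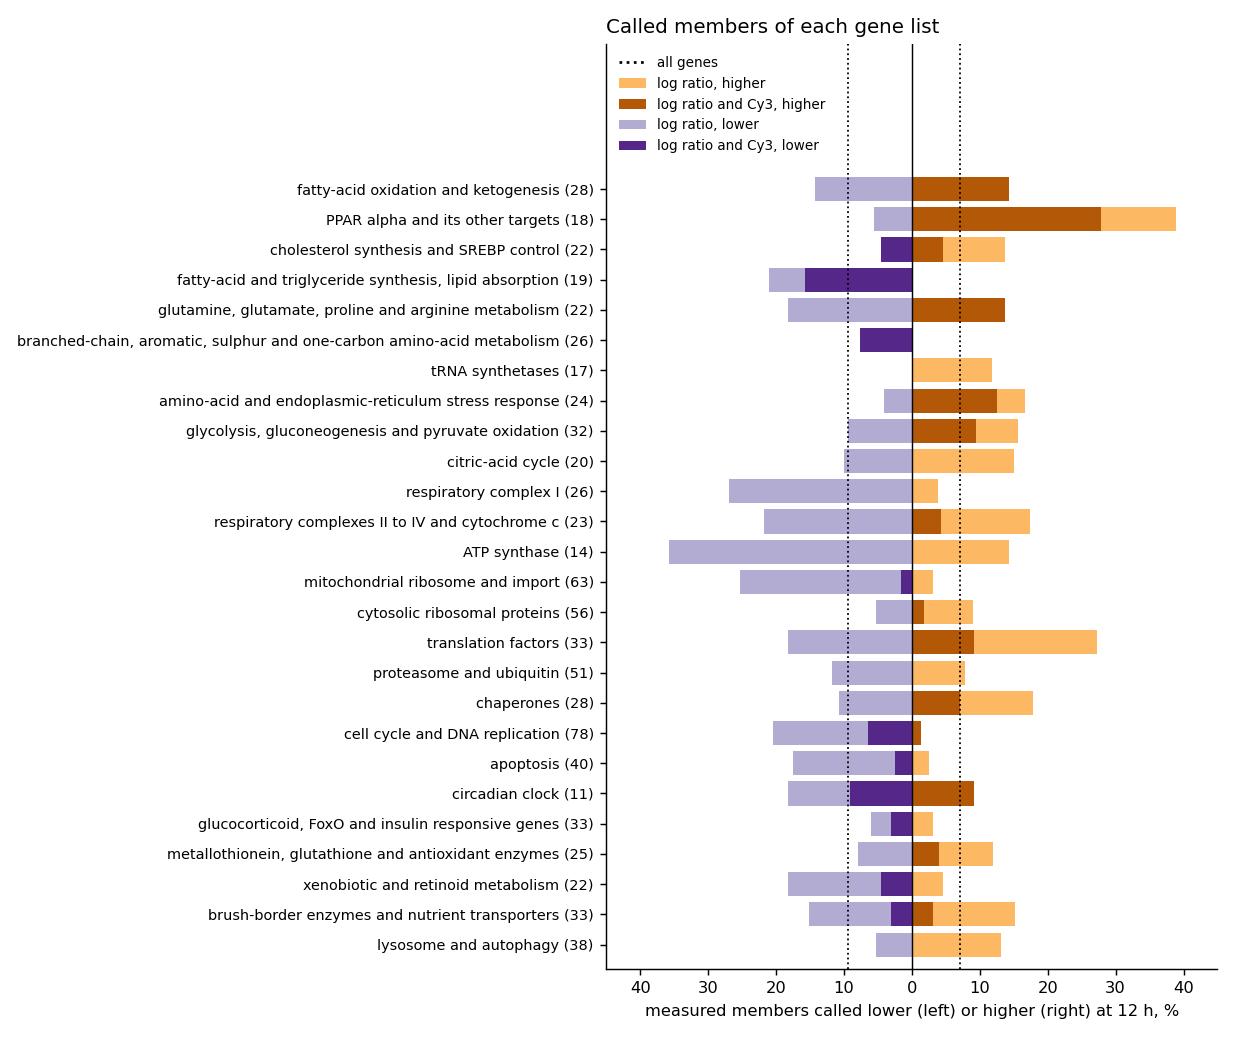
Share of the measured members of each gene list (number in parentheses) called higher (right) or lower (left) at 12 h (x axis, %), in the log ratio (light) and in the log ratio and Cy3 (dark). Dotted lines give the share over all 8074 genes, 7.05% higher and 9.35% lower. The PPARα list reaches 38.9% higher, 27.8% in both measures, and ATP synthase 35.7% lower with none in both.

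Markers of the cell types of the gut wall were measured in part. Of 16 smooth muscle markers 13 were measured, and 6 were called higher and none lower in the log ratio (46.2% against 16.4% of all genes). Of these 6, 3 (Actg2, Smtn and Mylk) were called in Cy3 as well. Cnn1, a calponin, was called lower in Cy3 (-0.71) with a log ratio difference of -0.08. Sums of marker signals are given over the members with a value on all 6 arrays. The 10 such smooth muscle markers, which leave out Acta2, Myl9 and Mylk, summed in Cy3 to 6641 to 7581 in the fed and 7577 to 8060 in the fasted pools, and in Cy5 to 6766 to 7565 on the fed and 4463 to 6865 on the fasted arrays. Actg2, the enteric smooth muscle actin, had Cy3 signals of 882, 763 and 575 fed and 1194, 1054 and 1331 fasted, without overlap, and rose by 1.80 ± 0.39 in the log ratio. The largest smooth muscle difference was in Acta2 (2.38 ± 0.53), where Cy3 was not called (0.96 ± 0.36). Without fed replicate 3 the calls of Actg2, Mylk, Des, Flna and Acta2 were lost, at adjusted p-values of 0.0623, 0.133, 0.0641, 0.131 and 0.0622, and that of Smtn was kept. In Cy3 Smtn lost its call without fed replicate 1, 2 or 3 or 12 h replicate 1 or 2 (adjusted p up to 0.107) and Mylk without fed replicate 3 (0.114), and a second, dimmer Mylk probe stood at -0.36 in the log ratio, not called. Flna lost its call without fed replicate 2 as well (0.0728), and Acta2 without 12 h replicate 3 (0.106). The stromal list had 3 of 12 measured genes called higher in the log ratio (25.0% against 16.4% of all genes), 1 of them in Cy3. In Cy3, 11 of the 12 summed to 5386 to 5821 in the fed and 6740 to 7154 in the fasted pools. The part of muscle and stromal RNA in the rises of Gapdh, Eef2, Pdlim1 and other genes that muscle also makes was not tested.

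Of the 4 measured enterocyte markers, Vil1, Apoa4 and Anpep had values on all 6 arrays, unlike Lct, and summed to Cy3 signals of 31704 to 68891 fed and 58656 to 64099 fasted, which overlap, with Vil1 at -0.02 in the log ratio. The 4 goblet cell markers were not called, and the 3 other than Spdef summed to 8834 to 11406 fed and 11651 to 18425 fasted. Paneth cells were represented by 2 probes, of lysozyme, which lacks a value on some arrays, and of Mmp7, a protease of Paneth granules. Mmp7 ranged in Cy3 from 131 to 892 fed and from 805 to 1068 fasted and was called higher in the log ratio (2.02), with 1.38 in Cy3, not called. Mmp7 lost its call without fed replicate 2 or 3 or 12 h replicate 3 (adjusted p up to 0.153). The 4 enteroendocrine markers summed to 1377 to 1793 fed and 1212 to 1330 fasted, and Nts, the neurotensin gene, was called lower in the log ratio (-1.50), with a Cy3 difference of -0.68. The 9 B cell markers were not called. Of 5 T cell markers Tcrb-J alone was called in the log ratio, while in Cy3 3 were called lower, Tcrb-J, Cd247 (-0.66) and Cd2 (-0.60). Lower Cy3 calls were made for 771 of all 8074 genes. The sum of the 5 was 999.6 to 1008 in the fed and 709 to 772 in the fasted pools. Only 1 of the 5 exceeded the negative controls in Cy3 on all 6 arrays, so this sum lies largely near background. Cd74, the invariant chain of antigen presentation, was the one of 10 myeloid and antigen-presenting markers called, with Cy3 signals of 2279, 2088 and 2194 fed and 4492, 4336 and 3622 fasted (1.64 ± 0.34, adjusted p = 0.012). Cd74 lost its log ratio call without fed replicate 3 (adjusted p = 0.0527). Exocrine pancreas was judged from 1 of 15 markers, Cpa1, whose Cy3 signal was 4349 to 29353 fed and 7750 to 13208 fasted. The 3 erythroid markers summed to 1158 to 2726 fed and 2290 to 5259 fasted, with Hba-x (1.21) and Slc4a1 (0.57) called higher in the log ratio and not in Cy3. Shares of the cell types in the changes above were not tested.

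Among the 175 named genes 59 were called in both measures, and 19 of these kept both calls whichever of the 6 arrays was left out. These were Pdk4, Acot1, Scd1, Pck1, Asns, Nupr1, Eif4ebp1, Eef2, Bag3, Slc44a4, Dusp9 and Slc34a2 among the rises and Akr1c14, Insig1, Elovl6, Ccng2, Nudt5, Plscr1 and Tcrb-J among the falls. With only the fed and 12 h arrays in the fit, none of the 19 was called in the log ratio. The Cy3 calls of Pck1, Eif4ebp1, Elovl6 and Bag3 were lost there too (adjusted p = 0.0778, 0.0913, 0.0701 and 0.0515), and the others kept theirs. Over all probes, 73 of the 548 did so, 46 rises and 27 falls, and 60 of the 73 were called in Cy3 with only the fed and 12 h arrays in the fit. A further 107 named genes were called in the log ratio alone, of which 23 kept that call without each array, and 3 in Cy3 alone.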

How the data were processed

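RNA of each pool of 2 intestines (Cy3) and of the fed reference (Cy5) was hybridised together to 1 array. The authors deposited, per array, the scanner table of Feature Extraction 6.1.1, in which the median intensity of each spot, the local background intensity and outlier flags were used. They also deposited log10 ratios, dye-normalised signals and a series table that repeats the ratios. In these columns the decimal point had moved in some cells, so the deposited values were held as a score with no fixed scale, restored from the digits of the signals, and used as alternatives only. The arrays have no sequencing depth, and their number limits the precision. The pools are of different mice.

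Median intensities were background-corrected with normexp (offset 50), flagged and control spots were left out, and the 24 channels of the 12 arrays were quantile normalised together. limma was fitted to the log2 ratio, and separately to Cy3 and Cy5, with 1 mean for each fasting time. The contrast was 12 h minus fed, with Benjamini-Hochberg adjustment over the 20278 probes. The fit was tested on simulated data with 200 changed probes. Genes were named through RefSeq symbols, each by its brightest probe. Named genes were, by rule, the 12 largest rises and 12 largest falls called in the log ratio and Cy3, measured on all 6 arrays and without overlap of the log ratio (there the called probe stood for the gene), up to 4 called members of each gene list in each direction, called marker genes, and genes that the study names for early fasting. Some of these genes are not reported here, though list counts include them. Members and lists were chosen with earlier results of these data known. Promoters came from RefSeq (GRCm38.p6). R 4.3.3, limma 3.58.1, data.table (1.17.8), Python 3.11.15, pandas 2.3.3 and matplotlib 3.10.9 were used.

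Alternatives were other background corrections and normalisations, the deposited ratios, flagged spots kept, well-measured probes only, array weights, fits with fewer arrays, the replicate number as a factor, and 3 settings chosen after seeing the data (a negative-control background, a negative-control filter, and the fed and 12 h arrays without 12 h replicate 1).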

Additional observations from a re-analysis of the deposited data

Results flagged for a closer look

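The difference between 24 h and 12 h of fasting, fitted on the same log ratios, passed an adjusted p of 0.05 for 17 of the named genes, so that their log ratio differed between the 2 times. Except for H2-Ab1, their log ratio lay closer to the fed level at 24 h than at 12 h. The fed pools are shared by both comparisons. Most named genes were chosen for their calls at 12 h, and the same 12 h arrays enter this difference. A 24 h value nearer to the fed level is therefore expected in part from the choice alone. Lower at 24 h than at 12 h were Xbp1 (-3.34, measured on 1 array at 12 h), Slc44a4 (-1.52), Fdps (-1.36), Asns (-1.32), H2-Ab1 (-0.88) and Acot1 (-0.73). Asns, for example, stood 1.65 above the fed pools at 12 h and 0.33 at 24 h (adjusted p of the difference = 0.00656). H2-Ab1 stood at 0.12 and -0.76 and was not called at 12 h.

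Higher at 24 h than at 12 h were Akr1c14 (2.44), Dgat2 (1.74), Cubn (1.56), Glud1 (1.48), Thra (1.43), Ciart (1.14), Plscr1 (1.00), Dipk2a (0.99), Bhlhe40 (0.95), Cdc45 (0.88) and Gclm (0.83). Akr1c14 stood at -2.99 against the fed pools at 12 h and at -0.55 at 24 h (adjusted p of the difference = 0.000462). The clock gene Ciart stood at -1.17 and -0.03 (adjusted p = 0.0237). Dgat2, with 1 fed array, stood at -1.61 and 0.13 (adjusted p = 0.00507). These differences rest on arrays whose Cy3 and Cy5 backgrounds also differed between the times, and the part of that was not tested.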

How the results depend on the processing

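The number of probes called depended on the spread used and on the normalisation, and the cause was not tested except where samples or probes were removed. Against 2213 calls in the log ratio, 3038 in Cy3, 4448 in Cy5, 548 in both the log ratio and Cy3 and 2817 past the methods' thresholds (p under 0.01 and 1.4-fold), only the fed and 12 h arrays gave 0, 1286, 514, 0 and 1450. No background correction gave 1189 in the log ratio, 2507 in Cy5, 286 in both and 1692 past the methods' thresholds. Median centring gave 8655 in Cy3 and 2504 in both, array weights gave 6518, 7204, 8928 and 2896, a test directly against the reference 4777 in the log ratio, and no moderation of the variance 1033 in the log ratio and 187 in both. Leaving out one array gave 636 to 4584 in the log ratio, 1789 to 3055 in Cy3, 1942 to 7699 in Cy5, 148 to 926 in both and 1913 to 4351 past the methods' thresholds. Chosen after seeing the data, a background taken from the negative-control spots gave 978 in the log ratio, 2389 in Cy5 and 268 in both, and the fed and 12 h arrays without 12 h replicate 1 gave 0, 979 in Cy3 and 0 in both. The share of higher calls was 685 of 1995 with the Feature Extraction log ratio or the series values against 993 of 2213, and in Cy5 1866 of 5498 under median centring against 2225 of 4448.

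The replicate block, with the replicate number as a factor, gave 1297 calls in the log ratio, 3008 in Cy3, 3864 in Cy5, 387 in both and 2464 past the methods' thresholds. The same number names different mice, and the deviations of same-numbered pools correlated at -0.24, -0.04 and -0.30 over probes, so there was no pairing. Slide and scan date as a block were not run, since the files carry no scan header.

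Of the 166 named genes called in the log ratio, all but 16 kept their sign in Cy3 alone and under every one of the 22 alternatives that gave a value (156 genes had a value under all). These 16 took the other sign in Cy3 alone: Rpl10 (-0.68), Bad (-0.71), Ppara (-0.26), Lamp1 (-0.016) and Eif4h (-0.014) against higher log ratios, and Eif3e (0.63), Fh1 (0.42), Rpl5 (0.23), Hspe1 (0.14), Got1 (0.12), Suclg1 (0.070), Pdk1 (0.037), Gm10123 (0.024), Atp5j (0.010), Ndufa8 (0.013) and Cox6c (0.0025) against lower ones. The alternatives are not all separate checks of the sign. Fits on the fed and 12 h arrays alone, without moderation or on filtered probes return the same differences by construction. The series values repeat the Feature Extraction ratios. The fed and 12 h arrays without 12 h replicate 1 repeat the differences of all arrays without that replicate. Among genes not called, Gclc turned to -0.32 with array weights, -0.15 directly against the reference, -0.34 without 12 h replicate 3 and -0.33 in Cy3, H2-Ab1 to -0.56 with median centring, -0.11 with array weights, -0.13 directly against the reference, -0.019 without fed replicate 2 and -0.064 without 12 h replicate 3, Rxra to -0.054 without fed replicate 3 and -0.11 without 12 h replicate 3, and Car1 to -0.94 without 12 h replicate 2. Leaving out one array, these genes reached at most 0.69 (Gclc), 0.29 (H2-Ab1), 1.06 (Rxra) and 3.17 (Car1). In Cy3 22.2% of probes exceeded the negative controls on 12 h replicate 3. On simulated data with 3 pools a state, over probes of every brightness, 52% of probes changed 2-fold were recovered in the log ratio and 54% in Cy3. The simulated noise was independent between arrays, with 1 spread per probe, and the changed probes had a value on every array. Shifts of whole arrays, such as those of the replicates numbered 3, were not simulated.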
